A study of Mus musculus with 12 samples.

Results

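The 39 genes described here are interferon-induced and antigen presentation genes, listed by name and matched to the count table through their Ensembl identifiers. The table holds 47069 mouse genes, of which 16157 had enough reads to be tested, and all 39 listed genes were among these. RNA was sequenced from cells of liver cancer organoids grown from tumors of Lgr5–DTR–GFP mice on a C57BL/6 background, a knock-in in which the Lgr5 locus drives GFP and the diphtheria toxin receptor. The tumors had been induced with diethylnitrosamine, and all 4 groups carried the same genotype. Cells were sorted on GFP, with staining for CD45 used to leave out leukocytes. The groups were LGR5- untreated, LGR5+ untreated, LGR5- 5-FU and LGR5+ 5-FU, with 3 libraries each. 5-FU (5-fluorouracil) is a pyrimidine analog used in chemotherapy, and its dose and duration for these libraries are not given in the sources used here. Neither do these sources say whether libraries of a group came from separate cultures or animals, so the tests measure the spread between libraries, which may be technical.

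Libraries held between 13750591 and 19323514 counted reads, and 3 reads, the limit that a count of 0 allows, came to 0.165 to 0.220 CPM (counts per library size after TMM scaling; the floor covers counting error only). Mitochondrial genes took 1.47% to 3.08% of the reads except in LGR5- replicate 3, where they took 6.93% untreated and 6.44% after 5-FU. Lgr5, the gene behind the sort, did not separate the sorted populations: it stood at 28.8 ± 6.63 CPM in LGR5- untreated, 25.7 ± 2.12 in LGR5+ untreated, 25.1 ± 9.5 in LGR5- 5-FU and 27.0 ± 0.196 in LGR5+ 5-FU libraries (SD, n = 3). The populations are therefore named as the sample labels name them. The labelled tissue is liver cancer, but hepatocyte markers were nearly absent: Alb reached at most 1.86 CPM, Ttr at most 0.0734 CPM and Hnf4a 0.117 CPM, and Afp lay between 9.88 and 54.3 CPM. The bile duct markers Krt19 and Krt7 lay between 374 and 5679 CPM, and Sftpc, a surfactant gene of lung epithelium, between 2619 and 17335 CPM.

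Interferons are secreted proteins that tell neighboring cells of infection or of misplaced nucleic acid. Type I interferons (receptor Ifnar1 and Ifnar2) and type III interferons (Ifnlr1 and Il10rb) act through a complex that holds STAT2 and IRF9 and binds the interferon-stimulated response element (ISRE) in promoters. Interferon gamma (Ifngr1 and Ifngr2) acts on the gamma-activated site (GAS) and, through IRF1, on genes of antigen presentation. The products sense viral RNA, block its translation or copying, cut proteins into peptides in the immunoproteasome, and carry these peptides to MHC class I molecules at the cell surface.

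Promoter sequences are shown first. The members were listed as interferon-induced and antigen presentation genes. A higher frequency of interferon motifs in their windows than in all windows is therefore built into the list, and it says nothing about these libraries. RefSeq windows of GRCm38.p6, from 250 bases before to 50 after a transcription start, were at hand for 31 of the 39 members, with 37 windows in all, and not for Dhx58, Zbp1, Usp18, Mx1, Mx2, Ifi27, Parp14 and Tap2. The ISRE was searched as GAAA, 2 free bases and GAAA on both strands, and the GAS as TTC, 3 free bases and GAA, which reads alike on both strands. The ISRE letters occurred in 14 of the 37 member windows (37.8%), belonging to 14 genes, and in 3.44% of all 32851 windows. The GAS letters occurred in 7 of the 37 (18.9%) and in 8.30% of all windows. A match describes letters in a window and does not show a bound site. Below are matched ISRE stretches with up to 10 bases on each side, in the direction of the gene and with the match in capitals. A match that reads TTTC, 2 bases and TTTC lies on the other strand.
Isg15: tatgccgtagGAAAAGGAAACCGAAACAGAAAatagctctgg
Ifit1, farther from the start: caggcttcagTTTCACTTTCcagtctcagt
Ifit1, nearer to the start: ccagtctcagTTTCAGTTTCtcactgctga
Ifit3: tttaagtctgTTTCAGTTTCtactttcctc
Oas1a: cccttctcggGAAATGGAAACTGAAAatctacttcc
Bst2: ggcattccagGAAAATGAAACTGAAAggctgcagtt
Gbp3: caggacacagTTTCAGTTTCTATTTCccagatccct
Stat2: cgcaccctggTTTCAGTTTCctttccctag
Cxcl10: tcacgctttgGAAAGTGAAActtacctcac
Isg15 held 3 overlapping matches between bases -78 and -57 from its start (minus strand, shown at chr4:156200865-156200906), and Oas1a held 2 between -20 and -5 (minus strand, chr5:120907520-120907555). In Bst2 (chr8:71537577-71537612) a GAS match between -136 and -128 overlapped the ISRE run. The matches of Ifit1 lay at -104 to -95 and -85 to -76, and that shown for Ifit3 at -122 to -113. The others were at -45 to -30 in Gbp3, -222 to -213 in Stat2 and -213 to -204 in Cxcl10.

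Of the members called after 5-FU (below), 7 had a window, 3 of them with ISRE letters (B2m, Cxcl10, Gbp2) and 2 with GAS letters (Irf1, Ifi35, the latter at +8 to +16). The 250 bases before the start are shown for the 3 called members with the smallest adjusted P that hold a match there, so that the matched letters, in capitals, can be read in place. For Irf1 the GAS letters stand at -90 to -82 (chr11:53769764-53770013, plus strand). For Gbp2 the ISRE letters stand at -59 to -50 (chr3:142620413-142620662, plus strand), and for B2m at -139 to -130 (chr2:122147437-122147686, plus strand).
Irf1: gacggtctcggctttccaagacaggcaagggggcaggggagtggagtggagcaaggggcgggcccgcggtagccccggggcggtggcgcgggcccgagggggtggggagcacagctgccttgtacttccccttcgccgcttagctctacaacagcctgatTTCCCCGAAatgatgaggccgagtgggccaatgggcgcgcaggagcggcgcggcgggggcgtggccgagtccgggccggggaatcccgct
Gbp2: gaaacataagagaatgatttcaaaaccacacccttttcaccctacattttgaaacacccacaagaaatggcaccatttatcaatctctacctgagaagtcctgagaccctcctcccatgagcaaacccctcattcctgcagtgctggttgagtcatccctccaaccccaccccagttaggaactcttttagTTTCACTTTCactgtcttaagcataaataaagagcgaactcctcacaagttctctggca
B2m: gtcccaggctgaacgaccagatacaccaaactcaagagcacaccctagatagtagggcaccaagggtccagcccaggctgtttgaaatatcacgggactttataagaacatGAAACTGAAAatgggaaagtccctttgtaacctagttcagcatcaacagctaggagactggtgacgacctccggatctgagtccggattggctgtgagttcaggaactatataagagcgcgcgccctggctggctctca

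Expression levels differed widely among the members. Per kilobase of annotated exon and averaged over LGR5- untreated libraries, B2m stood highest at 681 CPM per kb, followed by H2-D1 at 523, H2-K1 at 193, Ifi27 at 151, Bst2 at 147 and Isg15 at 54.8. The lowest were Mx1 at 0.172 CPM per kb, Gbp2 at 0.176 and Cxcl10 at 0.333. B2m, the light chain of MHC class I, and the class I heavy chains H2-D1 and H2-K1 held the first 3 places in 3 groups, while in LGR5- 5-FU cells Ifi27 (277) stood above H2-K1 (265). Ifi27 and Bst2, neighbors in LGR5- untreated cells, differed there by less than the spread between libraries.

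**Figure D1:**
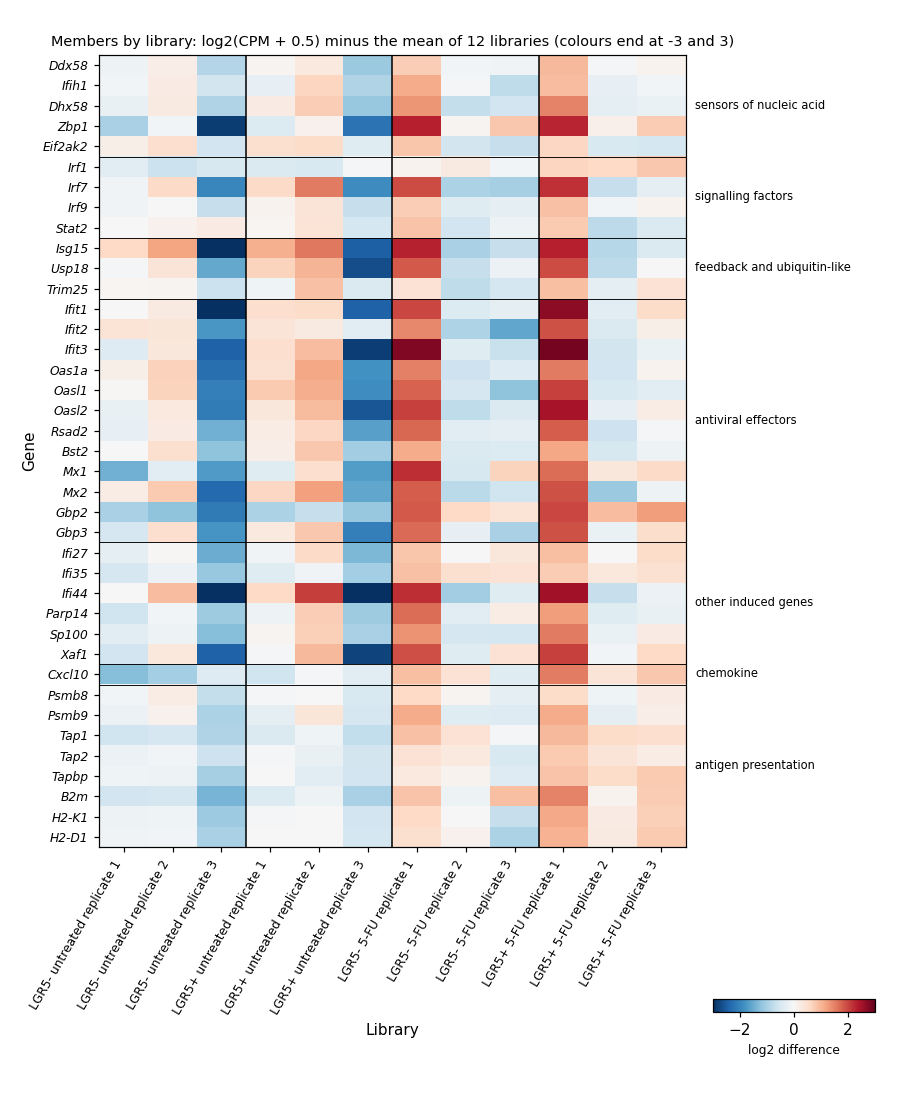
Each row is a member, ordered by role, and each column a library. The color gives log2(CPM + 0.5) minus the mean of that member over the 12 libraries, with red higher and blue lower. Untreated replicate 3 is blue and 5-FU replicate 1 is red in both populations for most rows, and Irf1 is an exception to both.

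The comparison of 5-FU-treated with untreated cells asks which members respond to the drug. In LGR5+ cells 7 of 39 members (17.9%) rose and 0 fell at an adjusted P under 0.05 (edgeR quasi-likelihood test, Benjamini-Hochberg adjustment over 16157 genes), beside 9.66% higher and 6.37% lower among all genes tested. In LGR5- cells 7 of 39 rose and 0 fell, beside 8.3% higher and 7.11% lower. No member that was lower had an unadjusted P under 0.05, and DESeq2 also called 0 lower. Irf1, Gbp2, Tap1, Ifi35, B2m and Cxcl10 were called in both populations. The calls of the populations are not independent of each other. They come from the same fit, and 5-FU libraries of equal number deviated alike (below). Tapbp was called in LGR5+ cells and Mx1 in LGR5- cells. The study's methods used another rule, with P unadjusted and under 0.05 and a log2 fold change beyond 1.5 in size. By it, 2 members were higher in LGR5+ cells (Gbp2, Cxcl10) beside 4.42% of all genes, and 4 in LGR5- cells (Gbp2, Mx1, Cxcl10, Zbp1) beside 4.25%. Every 5-FU library lay above every untreated library for 11 members in LGR5+ cells, beside 22.3% of all genes, and for 7 members in LGR5- cells, beside 13.7%.

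Antigen presentation genes made up 3 of the 7 calls in LGR5+ cells (Tap1, Tapbp, B2m) and 2 of the 7 in LGR5- cells (Tap1, B2m), out of 8 members. Tap1 is a subunit of the transporter that moves peptides into the endoplasmic reticulum. In LGR5+ cells it stood at 39, 48.4 and 31.9 CPM untreated and at 105, 78.1 and 75.5 CPM after 5-FU. LGR5- libraries stood at 34.8, 37.5 and 28.4 CPM untreated and at 97.9, 72.4 and 51.8 CPM after 5-FU. The groups did not overlap in either population. The log2 fold change was 1.12 ± 0.24 (SE) in LGR5+ cells (adjusted P = 0.00529) and 1.14 ± 0.24 in LGR5- cells (adjusted P = 0.00545), and it was called with any of the 6 libraries of either comparison left out.

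Tapbp encodes tapasin, which holds class I molecules at the peptide transporter. Its LGR5+ libraries gave 142, 112 and 93.3 CPM untreated and 252, 204 and 239.8 CPM after 5-FU, a log2 fold change of 1.0 ± 0.25 (adjusted P = 0.0141). Its LGR5- libraries gave 128, 126 and 69.6 CPM untreated and 170.4, 150.1 and 106 CPM after 5-FU, and these groups overlapped (log2 fold change 0.40 ± 0.25, adjusted P = 0.322). The call in LGR5+ cells held with 3 of the 6 libraries left out in turn.

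B2m libraries gave 749, 899 and 504 CPM in LGR5+ untreated and 2819, 1079 and 1702 CPM in LGR5+ 5-FU cells. In LGR5- cells the values were 668, 707 and 381 CPM untreated and 1814, 893 and 1871 CPM after 5-FU. All 5-FU libraries were above all untreated ones of the same population, and replicate 2 was the lowest after 5-FU in both. The log2 fold change was 1.38 ± 0.38 in both populations, with an adjusted P of 0.0236 in LGR5+ and 0.0247 in LGR5- cells, and the call held in 2 of 6 cases with a library left out, in each.

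The other members of the group were not called. In LGR5+ cells Tap2, the partner of Tap1, had a log2 fold change of 0.76 ± 0.25 (adjusted P = 0.0536), H2-K1 of 0.93 ± 0.35 (adjusted P = 0.0821) and H2-D1 of 0.90 ± 0.35 (adjusted P = 0.101), each without overlap between groups. DESeq2 and the fit of only the 6 libraries compared called all 3. In LGR5- cells the same genes had log2 fold changes of 0.42, 0.46 and 0.34, and their groups overlapped. The immunoproteasome subunits Psmb8 and Psmb9 had log2 fold changes between 0.32 and 0.57, with overlapping groups in both populations.

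Among the signalling factors, Irf1 was called and Irf7, Irf9 and Stat2 were not. Irf1, a transcription factor that responds to interferon gamma and acts on antigen presentation genes, had the smallest adjusted P of all members. Its LGR5+ libraries gave 35.3, 35.0 and 47.0 CPM untreated and 75.0, 73.1 and 84.4 CPM after 5-FU, a log2 fold change of 0.99 ± 0.17 (adjusted P = 0.00136). Its LGR5- libraries gave 37.9, 30.6 and 34.5 CPM untreated and 52.0, 57.5 and 45.3 CPM after 5-FU, a log2 fold change of 0.59 ± 0.17 (adjusted P = 0.0325). Groups did not overlap, and its libraries lay within 1.34-fold of each other in every group. Without any of the 6 libraries the call held in LGR5+ cells, and in LGR5- cells it held in 2 of 6 cases.

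Gbp2, a guanylate-binding GTPase with antimicrobial functions, had the largest fold change of the called members, from few reads. Untreated LGR5+ libraries gave 0.751, 0.983 and 0.597 CPM (13, 16 and 10 reads), and 5-FU libraries 9.16, 4.07 and 5.26 CPM (163, 74 and 90 reads). Untreated LGR5- libraries gave 0.727, 0.549 and 0.0555 CPM (12, 10 and 1 read), and 5-FU libraries 8.12, 3.16 and 2.71 CPM (138, 54 and 37 reads). The log2 fold change was 2.98 ± 0.59 in LGR5+ cells (adjusted P = 0.00326) and 3.39 ± 0.63 in LGR5- cells (adjusted P = 0.00255). It was called with any library left out, and it could not be tested where at least 10 reads in every library were required.

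Ifi35, an interferon-induced leucine zipper protein, rose from 45.2, 53.5 and 28.3 CPM to 97.9, 72.1 and 79.5 CPM in LGR5+ cells (log2 fold change 0.97 ± 0.27, adjusted P = 0.0222). Its LGR5- values rose from 40.7, 51.5 and 25.9 CPM to 106, 80.6 and 78.9 CPM (1.17 ± 0.27, adjusted P = 0.00896). The chemokine Cxcl10, which draws T cells through CXCR3, was low throughout. It rose from 0.982, 1.66 and 1.31 CPM to 6.02, 2.42 and 3.45 CPM in LGR5+ cells (1.58 ± 0.49, adjusted P = 0.0413). In LGR5- cells it rose from 0.424, 0.604 and 1.22 CPM to 3.71, 2.52 and 1.25 CPM (1.72 ± 0.52, adjusted P = 0.0359), where the lowest treated library exceeded the highest untreated library by less than the floor of either. Mx1, an antiviral GTPase, was called in LGR5- cells alone (2.90 ± 0.92, adjusted P = 0.0476), although its groups overlapped there, with 0.364, 1.37 and 0.222 CPM untreated and 10.4, 1.17 and 3.23 CPM after 5-FU. In LGR5+ cells its log2 fold change was 1.5 ± 0.85 (adjusted P = 0.266), and the difference between the populations' responses did not pass the threshold (unadjusted P = 0.275). With 1 library left out in turn, Ifi35 was called in 2 of 6 cases in LGR5+ and in 6 of 6 in LGR5- cells. Cxcl10 was called in 1 and 2 of 6 cases, and Mx1 in 2 of 6 in LGR5- cells.

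**Figure D2:**
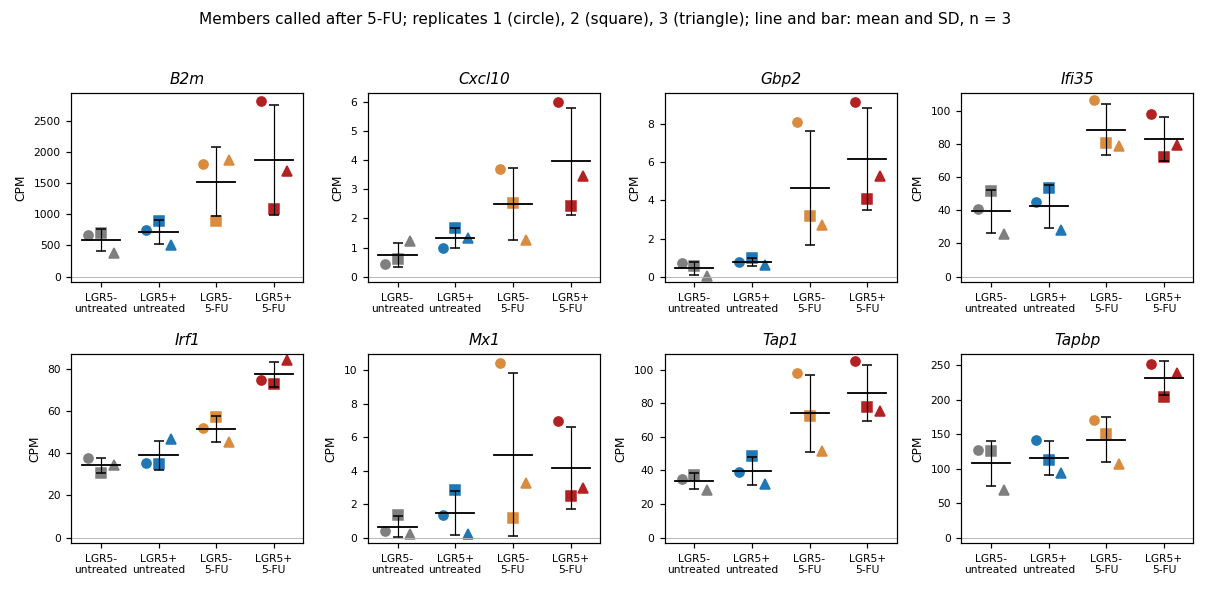
CPM of the 8 members called in either population, with 1 point per library (circle, replicate 1; square, replicate 2; triangle, replicate 3), the mean as a line and the SD as a bar (n = 3). Treated libraries lie above untreated ones of the same population for Irf1, Tap1, Ifi35, B2m, Gbp2 and Cxcl10, and Mx1 groups overlap.

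Of the 31 members outside antigen presentation, 27 were not called in LGR5+ cells and 26 not in LGR5- cells, and most of these are the genes by which an interferon response is usually read. Isg15, a ubiquitin-like protein attached to other proteins, gave 67.7, 97.1 and 5.50 CPM in LGR5+ untreated and 162, 17.6 and 23.4 CPM in LGR5+ 5-FU cells. Its LGR5- libraries gave 48.6, 73.6 and 2.11 CPM untreated and 161, 16.0 and 19.5 CPM after 5-FU. Replicate 3 was lowest among untreated and replicate 1 highest among treated libraries, in both populations. The log2 fold change for 5-FU was 0.26 ± 1.42 in LGR5+ and 0.66 ± 1.43 in LGR5- cells (adjusted P = 0.930 and 0.806).

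Irf7, the factor that amplifies type I interferon production, gave 74.0, 146 and 13.0 CPM in LGR5+ untreated and 228, 30.3 and 40.5 CPM in LGR5+ 5-FU cells. The LGR5- libraries gave 45.4, 72.8 and 12.2 CPM untreated and 193, 25.3 and 24.2 CPM after 5-FU. The order of the libraries was that of Isg15 apart from replicates 2 and 3 of LGR5- 5-FU cells. Xaf1, a proapoptotic interferon-induced gene, gave 47.7, 98.1 and 6.81 CPM in LGR5+ untreated and 206, 46.5 and 75.5 CPM in LGR5+ 5-FU cells. In LGR5- cells it gave 33.2, 61.8 and 8.77 CPM untreated and 191, 38.5 and 67.5 CPM after 5-FU. Untreated replicate 3 and 5-FU replicate 1 again stood apart.

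The uncalled members with the largest fitted changes after 5-FU were Zbp1, Ifit1, Mx1 and Ifit3 in LGR5+ cells and Zbp1, Ifit3, Xaf1 and Parp14 in LGR5- cells. Zbp1, a sensor of left-handed nucleic acid that can start necroptosis, gave 7.33, 10.9 and 1.73 CPM in LGR5+ untreated and 49.9, 11.1 and 17.3 CPM in LGR5+ 5-FU cells. LGR5- libraries gave 4.85, 9.33 and 0.944 CPM untreated and 52.0, 10.5 and 17.8 CPM after 5-FU. Its groups did not overlap, but its log2 fold changes of 1.97 ± 0.94 and 2.41 ± 0.96 missed the threshold (adjusted P = 0.195 and 0.129). Ifit3, which binds viral RNA together with Ifit1, had log2 fold changes of 1.42 ± 1.41 in LGR5+ and 2.04 ± 1.46 in LGR5- cells, which became -0.62 and -0.08 without the replicate 1 library of the 5-FU group.

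**Figure D3:**
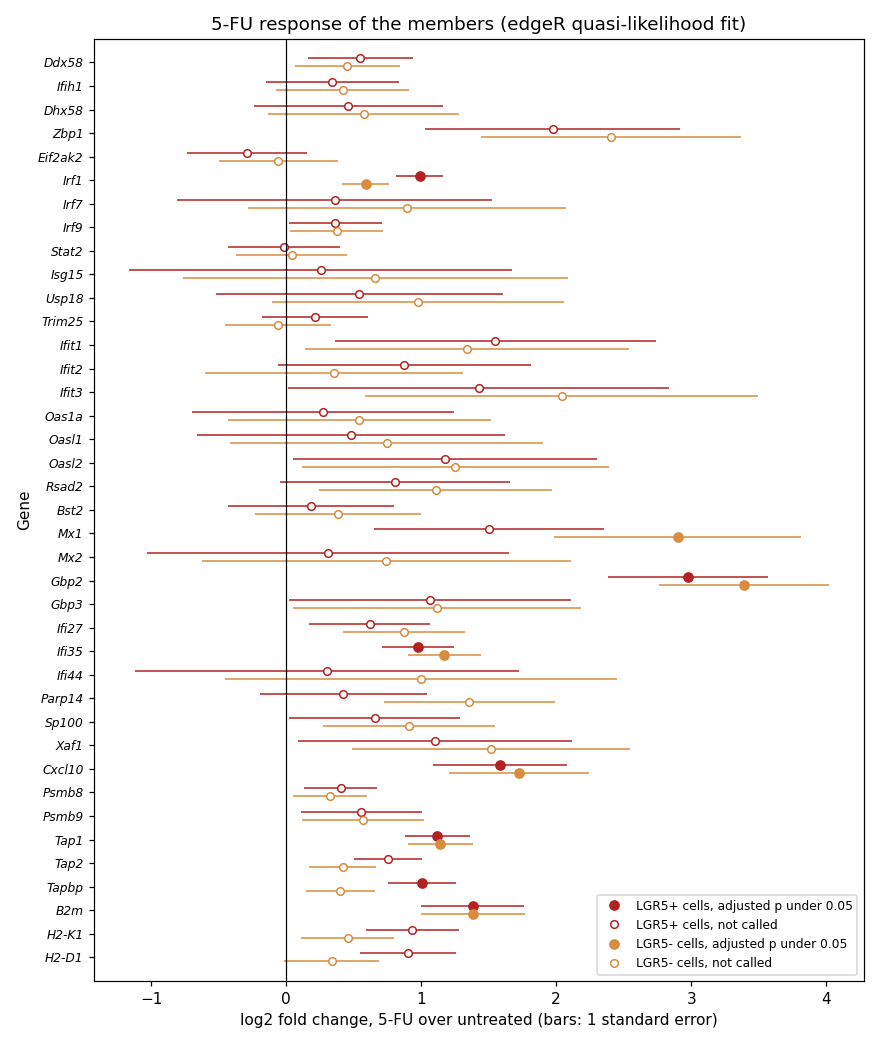
Points give the log2 fold change of 5-FU over untreated cells for each member (red, LGR5+; orange, LGR5-), with bars of 1 standard error, and filled points are those with an adjusted P under 0.05. Most points lie right of 0, but only 8 members have a filled point in either population, and the bars are wide for Isg15, Ifi44, Mx2 and Ifit3.

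The other RNA sensors, Ddx58 (RIG-I), Ifih1 (MDA5), Dhx58 (LGP2) and Eif2ak2 (PKR, which halts translation), had log2 fold changes between -0.29 and 0.57 over both populations, with overlapping groups. Of the signalling factors, Irf9 had log2 fold changes of 0.36 in LGR5+ and 0.37 in LGR5- cells, and Stat2 of -0.02 and 0.04, with overlapping groups. Usp18, which removes Isg15 and dampens the type I receptor, and Trim25, a ubiquitin ligase that activates RIG-I, lay between -0.06 and 0.98. Among the 12 antiviral effectors, the uncalled ones were Ifit2, Oas1a, Oasl1, Oasl2, Rsad2, Bst2, Mx2 and Gbp3 beside those named above, with log2 fold changes from 0.18 for Bst2 in LGR5+ cells to 1.25 for Oasl2 in LGR5- cells. Oas1a makes the messenger that activates RNase L, Rsad2 (viperin) makes a chain-terminating nucleotide, and Bst2 (tetherin) holds budding virus at the membrane. Of the other induced genes, Ifi27, Ifi44, Parp14 and Sp100 had log2 fold changes between 0.30 and 1.36.

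The spread between replicate libraries was wider for the members than for genes at large. The highest library of a group exceeded the lowest by a median of 2.60-fold over the members in LGR5- untreated, 3.29-fold in LGR5+ untreated, 3.68-fold in LGR5- 5-FU and 3.03-fold in LGR5+ 5-FU cells. The same medians over all genes tested were 1.59, 1.40, 1.60 and 1.33. The spread was wide for the antiviral effectors, with medians of 6.11-fold to 10.6-fold over the groups, and for the 3 feedback and ubiquitin-like genes, with 4.06-fold to 16.1-fold. It was narrower for antigen presentation, with medians of 1.5-fold to 1.99-fold. In LGR5+ untreated cells it reached 48.6-fold for Ifi44 and 34.2-fold for Ifit3.

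**Figure D4:**
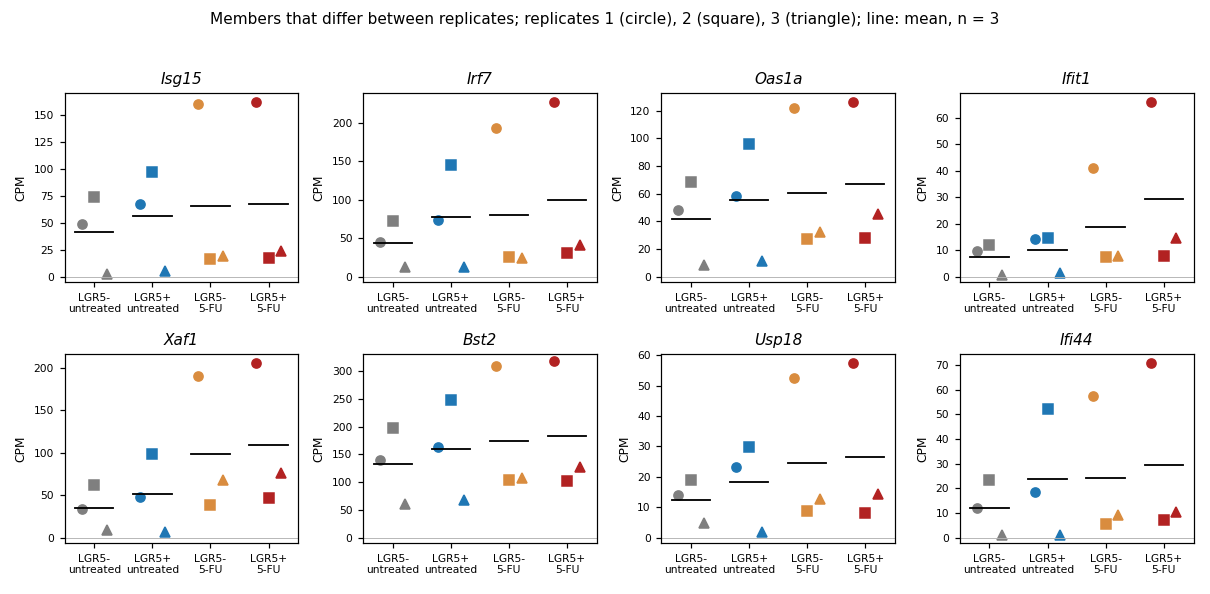
CPM of 8 members that were not called, with 1 point per library (circle, replicate 1; square, replicate 2; triangle, replicate 3) and the mean as a line (n = 3). In each panel untreated replicate 3 is the lowest untreated library and 5-FU replicate 1 the highest treated library of both populations.

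This spread had the same form in LGR5+ and LGR5- cells. After 5-FU, 37 of 39 members were highest in replicate 1 of both populations, all but Irf1 and B2m, beside 22.1% of all genes tested. In untreated cells, 36 of 39 were lowest in replicate 3 of both populations, all but Irf1, Cxcl10 and Stat2, beside 12.9% of all genes. The median member stood 2.93-fold above the mean of replicates 2 and 3 in replicate 1 of LGR5- 5-FU cells and 2.66-fold in LGR5+ 5-FU cells, where the median over all genes was 1.01. In untreated cells the mean of replicates 1 and 2 was 2.03-fold replicate 3 in LGR5- and 2.7-fold in LGR5+ cells for the median member, against 0.984 and 1.0 over all genes. Mitochondrial genes took 6.93% of the reads in LGR5- untreated replicate 3 and 2.01% in LGR5+ untreated replicate 3, and their part in the low values was not tested.

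A test of replicate number within the 5-FU libraries was added after these values had been seen. In the fit of 12 libraries it called 1 of 39 members, Stat2 (adjusted P = 0.0357), beside 0.749% of all genes, and 25 members had an unadjusted P under 0.05. In a fit of the 6 treated libraries alone it called 30 of 39, beside 4.8% of 15196 genes, and the 9 left out were Cxcl10, H2-D1, H2-K1, Ifi35, Irf1, Psmb8, Tap1, Tap2 and Tapbp. Leaving out any of the 6 libraries from the fit of 12 left 0 calls. Sample labels give no date, batch or culture for a replicate number, so what replicates of equal number share was not tested.

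The median member's response to 5-FU depended on single libraries. Over the 39 members the median log2 fold change was 0.66 in LGR5+ and 0.74 in LGR5- cells, against -0.02 and -0.05 over all genes, and 37 members had a positive value in each. Without the 5-FU replicate 1 library the medians were 0.02 in LGR5+ and -0.02 in LGR5- cells, with 20 and 19 members positive. Without untreated replicate 3 they were 0.36 and 0.45, and without untreated replicate 2 they were 1.01 and 1.23. In LGR5- cells the median was also above 1 without 5-FU replicate 2 (1.12) or 3 (1.18). Without 5-FU replicate 1, Gbp2, Irf1, Tap1 and Tapbp were still called in LGR5+ cells, and Gbp2, Ifi35 and Tap1 in LGR5- cells. The number called in LGR5+ cells also fell without untreated replicate 1 (4), 2 (5) or 3 (3) or 5-FU replicate 3 (3), and was 7 without 5-FU replicate 2. In LGR5- cells it fell without any library, to 3 without untreated or 5-FU replicate 1 and to 5 without each other library.

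**Figure D5:**
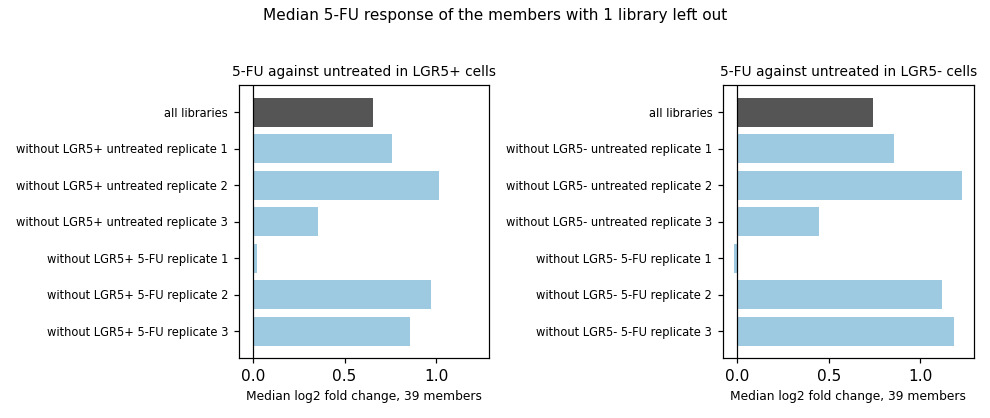
Bars give the median log2 fold change of the 39 members for 5-FU over untreated cells with all libraries (dark) and with 1 library left out (light), for LGR5+ cells on the left and LGR5- cells on the right. The bar is close to 0 only where 5-FU replicate 1 is left out, at 0.02 and -0.02.

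LGR5+ and LGR5- cells were compared within each treatment to ask whether the populations differ in these genes. In untreated cells 0 of 39 members were called by edgeR, beside 0.0% of all genes in either direction, and 0 had an unadjusted P under 0.05, beside 1.32%. DESeq2 called 0. No member had all LGR5+ above all LGR5- libraries, beside 2.7% of all genes. The median log2 fold change was 0.36, with 37 of 39 members positive and Mx1 at 1.14 ± 0.93, Ifi44 at 0.98 ± 1.45, Irf7 at 0.83 ± 1.18 and Gbp2 at 0.81 ± 0.67 the largest. It was -0.01 without LGR5- untreated replicate 3 and -0.02 without LGR5+ untreated replicate 2. With replicate number as a block within treatment, 0 members were called, and 11 rather than 0 had an unadjusted P under 0.05, beside 2.43% of all genes (Ifi44, Ifit1, Ifit3, Irf7, Isg15, Mx1, Oas1a, Oasl1, Parp14, Sp100 and Zbp1). Between untreated libraries of equal number, 34, 35 and 29 of 39 members were higher in LGR5+ cells, beside 7987, 8253 and 8075 of all 16157 genes. The labels do not say that untreated libraries of equal number belong together, and their deviations did not correlate in every pair.

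After 5-FU, 0 of 39 members were called between the populations by edgeR, beside 0.0% of all genes, and DESeq2 called 0. The median log2 fold change was 0.22 with 32 of 39 members positive, but 24 were positive with scaling by library size only, and the median ran from -0.49 to 1.05 with 1 library left out. Between libraries of equal number, 31, 27 and 34 of 39 members were higher in LGR5+ cells, beside 8821, 8454 and 8460 of all 16157 genes. Irf1 and Tapbp had an unadjusted P under 0.05, beside 13.0% of all genes, and these were the 2 members with all LGR5+ above all LGR5- libraries, beside 14.2%. Irf1 was 1.5-fold higher in LGR5+ cells (log2 0.59 ± 0.17, unadjusted P = 0.00399, adjusted P = 0.344 in edgeR's test) and Tapbp 1.63-fold (0.71 ± 0.25, unadjusted P = 0.0139, adjusted P = 0.352). H2-D1 differed by 0.74 ± 0.35, Ifit2 by 0.74 ± 0.94 and H2-K1 by 0.68 ± 0.35, with overlapping groups. The LGR5- library lowest in H2-K1 and H2-D1, at 461 and 883 CPM, was replicate 3. With replicate number as a block within treatment, 0 members were called, and 10 rather than 2 had an unadjusted P under 0.05, beside 21.6% of all genes (H2-D1, H2-K1, Ifit1, Ifit2, Irf1, Oasl2, Sp100, Tap2, Tapbp and Trim25). The adjusted P was then 0.125 for Irf1 and 0.111 for Tapbp.

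The difference between the populations' responses to 5-FU was tested directly, and edgeR and DESeq2 called 0 of 39 members, beside 0.0% of all genes in edgeR. No member had an unadjusted P under 0.05, beside 1.57% of all genes. The smallest unadjusted P values were 0.112 for Tapbp, whose response was 0.60 ± 0.36 (log2) greater in LGR5+ cells, and 0.122 for Irf1, at 0.40 ± 0.24. The largest differences in size were -1.40 ± 1.23 for Mx1 and -0.93 ± 0.88 for Parp14.

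Other genes of the pathway were listed by role. Of 84, 72 were tested, 8 rose in LGR5+ cells after 5-FU with 0 lower, and 7 rose and 1 fell in LGR5- cells. These shares are near the 9.66% and 8.3% of all genes called higher. The difference between the populations' responses was called for 0 of the 72 in edgeR, with 1 at an unadjusted P under 0.05. The interferons themselves were nearly absent. Of 10 ligand genes, 7 had no read in any library, among them Ifng and the 4 interferon alpha genes listed (Ifna1, Ifna2, Ifna4, Ifna5). Ifnb1 had 1 read and Ifne 3 reads over the 12 libraries, and Ifnk had at most 12 reads in a library, so none was tested. Receptor genes were present in every library. Ifngr1, a chain of the interferon gamma receptor, rose in LGR5+ cells from 63.5, 37.8 and 58.4 CPM to 108, 107 and 126 CPM (log2 fold change 1.09 ± 0.21, adjusted P = 0.00228). In LGR5- cells it went from 57.1, 50.9 and 51.4 CPM to 67.4, 78.9 and 54.1 CPM (0.33 ± 0.21, adjusted P = 0.315). Il10rb, the chain that interferon lambda shares with interleukin 10, rose in both (1.05 ± 0.19, adjusted P = 0.00174, and 0.94 ± 0.19, adjusted P = 0.00431).

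Among 15 tested factors and adaptors, Ikbke rose in both populations, and Nlrc5, the transactivator of MHC class I genes, rose in LGR5- cells (log2 fold change 2.66 ± 0.73, adjusted P = 0.0226). In LGR5+ cells Nlrc5 had a log2 fold change of 1.83 ± 0.68 (adjusted P = 0.0810), and its LGR5- untreated libraries, at 0.167 to 0.364 CPM, lay near the floor. Ikbke, a kinase upstream of Irf3 and Irf7, had log2 fold changes of 1.02 ± 0.22 (adjusted P = 0.00584) and 1.01 ± 0.22 (adjusted P = 0.00725). Of 5 tested inhibitors, Ptpn6 fell in LGR5- cells (-0.85 ± 0.25, adjusted P = 0.0336) and had a log2 fold change of -0.68 ± 0.25 in LGR5+ cells (adjusted P = 0.0803). Of 30 further induced genes, Gbp9 alone rose, in both populations (2.53 ± 0.70 and 2.24 ± 0.69, adjusted P = 0.0226 and 0.0423). With a library left out, Gbp9 was called in 3 of 6 cases in LGR5+ and 1 of 6 in LGR5- cells, and Nlrc5 and Ptpn6 in 3 of 6.

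Of 13 further antigen presentation genes, H2-Eb1, Cd74 and H2-T23 rose in both populations. H2-Eb1, a class II beta chain, went from 1.91, 1.17 and 1.55 CPM to 9.84, 8.53 and 10.1 CPM in LGR5+ cells (log2 fold change 2.61 ± 0.29, adjusted P = 3.54e-05). Its LGR5- values went from 1.15, 1.43 and 2.28 CPM to 9.83, 10.1 and 11.8 CPM (2.7 ± 0.29, adjusted P = 4.81e-05). All 6 treated libraries lay between 8.53 and 11.8 CPM. Cd74, the class II invariant chain, rose by 1.53 ± 0.32 (adjusted P = 0.00406) and 1.31 ± 0.31 (adjusted P = 0.0114). H2-T23, a nonclassical class I gene, rose by 1.22 ± 0.24 (adjusted P = 0.00279) and 0.87 ± 0.24 (adjusted P = 0.0218), and the LGR5- call of H2-T23 held in 2 of 6 cases with a library left out. The other class II genes H2-Aa and H2-Ab1 were at or below 2.94 CPM in every library and were not called. In LGR5+ cells their log2 fold changes were -1.58 ± 1.27 and -1.23 ± 0.67, opposite in sign to H2-Eb1, and in LGR5- cells 1.18 ± 0.87 and 0.04 ± 0.61.

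Markers of other cell types were read beside these changes, since in bulk RNA a change in cells of a type and a change in RNA per cell cannot be told apart. Ptprc (CD45), the leukocyte marker used in the sort, lay between 0.165 and 0.722 CPM except in the 5-FU replicate 1 libraries, with 1.24 CPM in LGR5- and 2.02 CPM in LGR5+ cells, and these are the libraries highest in most members. The 10 macrophage markers summed to 31.8 to 66.1 CPM in untreated and 45.1 to 114 CPM in treated libraries, most of it Cd14 and Cd68. Cd68 rose after 5-FU (log2 fold change 2.06 ± 0.37 and 1.95 ± 0.37, adjusted P = 0.00173 and 0.00326). Cd14 was not called in edgeR's test (0.26 ± 0.25 in LGR5+ and 0.40 ± 0.26 in LGR5- cells, adjusted P = 0.547 and 0.336). Adgre1, Csf1r and C1qa, C1qb and C1qc reached at most 0.807 CPM. The 7 T and NK cell markers summed to at most 0.346 CPM, with Cd3e, Cd3g, Nkg7, Klrb1c and Gzmb at 0 in every library. Of the others, B cell markers summed to 5.89 to 12.3 CPM, nearly all Cd79b, endothelial markers to 1.67 to 4.06 CPM and fibroblast markers to 23.9 to 59.3 CPM, nearly all Dcn. Plasmacytoid dendritic cell markers summed to 332 to 568 CPM, but that list holds Bst2, a member, and Siglech was at 0 in 11 of 12 libraries. Hepatocyte markers summed to 10.5 to 56.4 CPM, nearly all Afp, and lung epithelium markers to 2717 to 17423 CPM, most of it Sftpc. Sftpc was lowest in replicate 3 of both untreated groups, as most members were (16445, 17335 and 3440 CPM in LGR5- and 15665, 5764 and 4891 CPM in LGR5+ cells). After 5-FU it was lowest in replicate 1 of both populations, at 3938 and 2619 CPM, where most members were highest. Of the other lung markers, Sftpa1 was lowest in these same libraries. Sftpb was lowest in untreated replicate 3 of both populations, but in LGR5+ 5-FU cells it was highest in replicate 1 (29.0, 25.7 and 27.0 CPM). Nkx2-1 was lowest in 5-FU replicate 1 of both populations, but in LGR5- untreated cells it was highest in replicate 3 (43.3, 50.9 and 53.7 CPM). Bile duct markers moved with the treatment, summing to 2386 to 3108 CPM in untreated and 3411 to 11872 CPM in treated libraries. Krt19 rose (2.95 ± 0.31 in LGR5+ and 2.35 ± 0.30 in LGR5- cells, adjusted P = 2.05e-05 and 0.000168), as did Krt7 (2.64 ± 0.34 and 1.75 ± 0.33, adjusted P = 0.000127 and 0.00292). Afp rose as well (1.31 ± 0.34 and 1.43 ± 0.34, adjusted P = 0.0177 and 0.0118). The part of other cells in these results was not tested.

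Some counts may hold reads of neighbors or relatives. Strand in the authors' counting is not given in the sources used here, and Tapbp shares 24.9% of its exon bases with the antisense gene Gm19412, Ifi35 shares 16.8% with Gm11626, Psmb8 14.7% with Gm20496, and Tap1 3.87% with Psmb9. H2-K1 and H2-D1, Oas1a and Oas1g, the Gbp and Ifit families, and Mx1 and Mx2 are related genes. Reads from stretches that relatives share may have been lost or misassigned, so their separate values are less certain.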

How the data were processed

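The authors deposited a table of read counts per gene for 12 libraries, made with SMART-Seq v4 amplification of sorted cells. The submitters' processing notes name HISAT2, HISAT, TopHat2, HTSeq and the build mm8, without roles or order. The counts are raw and carry Ensembl identifiers, of which 46488 were matched to symbols through GENCODE M21 and 581 were not. Promoter positions are those of GRCm38.p6 in RefSeq and are independent of the authors' counting.

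Genes with enough reads for the group sizes (edgeR 4.0.16, filterByExpr) were kept, 16157 in all. Counts were scaled by TMM and fitted with 4 group means over all 12 libraries (glmQLFit, robust). Contrasts were tested with glmQLFTest, and P values were adjusted after Benjamini-Hochberg over all genes tested. A gene was called at an adjusted P under 0.05. Standard errors were computed as the log2 fold change divided by the root of F. The script was tested on simulated data. No library pair of a group agreed within sampling noise (lowest chi-square per degree of freedom 4.42). Alternatives were DESeq2 1.42.0, RLE scaling, library size only, other filters, only the libraries compared, a replicate block and leaving out each library in turn.

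The members, roles, pathway genes and markers were chosen with earlier results of these data known. Genes given with values were the called members (up to 15 per comparison), the 4 uncalled members with the largest absolute log2 fold change, and called pathway genes. Members such as Isg15, Irf7, Tap2, H2-K1 and H2-D1, and the test of replicate number, were chosen after values were seen. Deviations from the group means correlated between LGR5+ and LGR5- 5-FU libraries of equal number (r = 0.69, 0.29 and 0.39 over 16157 genes), so these numbers were taken as pairs. In the other comparisons not every pair passed 0.1. Values of some pathway genes are not reported here.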

Additional observations from a re-analysis of the deposited data

How the results depend on the processing

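With 3 libraries a group, an exact permutation test of a single gene cannot go below 0.1, so calls rest on the spread shared across genes. Members called after 5-FU numbered 7 in LGR5+ cells and between 6 and 10 under the other settings (10 with DESeq2 and with only the libraries compared). In LGR5- cells they numbered 7, against 4 where at least 10 reads in every library were required, which leaves Gbp2, Cxcl10 and Mx1 untested. They numbered 4 with only the libraries compared, for which the cause was not tested, 5 without a filter and 6 with library size only. Irf1 and Mx1 lost their LGR5- calls without a filter and with only the libraries compared. Cxcl10 lost its LGR5- call with library size only and with only the libraries compared. With 1 library left out the counts ranged from 3 to 7 in LGR5+ and from 3 to 5 in LGR5- cells. Ifit3 changed direction without 5-FU replicate 1, to -0.62 in LGR5+ and -0.081 in LGR5- cells, and otherwise reached 2.03 and 2.80. The test of replicate number in 5-FU cells called 1 member, 3 without a filter, 30 with only the 6 libraries, 27 with the number fitted in both treatments, and 0 with any library left out. With a replicate block 9 members were called in LGR5+ and 7 in LGR5- cells after 5-FU and 0 in the other comparisons. Untreated libraries of equal number correlated at 0.59, -0.11 and 0.28, so these numbers were not taken as pairs. The comparisons of LGR5+ with LGR5- cells and of their responses gave 0 called members under every setting run. Over all genes, only the libraries compared gave 4045 calls in LGR5+ cells (2590 with all 12) and 1282 in LGR5- cells (2489 with all 12). Between the populations after 5-FU, all-gene calls were 0 with edgeR, 92 with DESeq2, 11 without a filter and 3 with the block within treatment. Scaling by library size only shifted the all-gene median by up to -0.10 (log2), in the difference of responses, and LGR5+ exceeded LGR5- cells after 5-FU in 24 rather than 32 members.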
